A study of Mus musculus with 7 samples.

Results

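The microRNA family of miR-34 and miR-449 was examined in the hippocampus of mice with and without inhibition of nuclear protein phosphatase 1 (PP1). Its members were taken by name (mmu-miR-34a, mmu-miR-34b-5p, mmu-miR-34c and mmu-miR-449a), with the other-arm products miR-34b-3p and miR-34c*. These are 6 of the 756 distinct mature miRNA sequences that had reads. Small RNA libraries, 7 in all, were made from pooled hippocampi of adult C57BL/6 males aged 3 to 5 months. NIPP1* mice carry the PP1-binding part of NIPP1, a nuclear PP1 inhibitor, fused to EGFP. It was placed under a tetO promoter and was driven in forebrain neurons by a reverse tetracycline-controlled transactivator under the CaMKIIalpha promoter, upon a doxycycline diet. Controls were littermates, which the labels call wildtype. Trained mice had explored objects in an object recognition (NOR) task, and non-trained mice (untrained in the labels) had been placed in the same arena without objects.

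The non-trained control was sequenced as library 1 and the non-trained NIPP1* group as library 2. Trained control replicates 1, 2 and 3 were libraries 3, 4 and 5, and trained NIPP1* replicates 1 and 2 were libraries 6 and 7. These replicate numbers follow the order of deposition and pair no libraries. How the mice were divided among the libraries is not stated, so p-values measure only the spread between these libraries. The transgene is not seen in small RNA reads, so the labelled genotypes could not be verified. The group means that the authors deposited for their comparison of trained control with trained NIPP1* place the trained libraries the other way. Over 319 miRNAs, libraries 6 and 7 rebuilt its trained control means with a root mean square error of 0.0186%, against 15.6% for libraries 3, 4 and 5. The trained means in the authors' other comparisons were not checked in this way. Groups here follow the labels, so every difference that uses a trained group by genotype carries this limit. Libraries held between 7285067 and 10017854 miRNA reads, and levels are given as reads per 1000000 miRNA reads (RPM), of which 1 read was worth 0.0998 to 0.137.

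The family is defined by a common seed, the bases at the start of a miRNA that pair with target mRNAs, so its members are expected to share many targets. Transcription of Mir34a and of the joint Mir34b/Mir34c transcript is induced by p53, and known targets include regulators of the cell cycle and Sirt1. Mir34b, Mir34c and the Mir449 genes are also known for high expression in multiciliated epithelia, which in the brain include the ependyma and the choroid plexus. miR-34c has been studied in hippocampal memory.

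The mature sequences show what the members have in common and where they part, and are given 5′ to 3′ from RefSeq (GRCm38.p6), which held 5 of the 6 members, all but miR-34c. Capitals mark the seed, bases 2 to 8.
miR-34a: uGGCAGUGucuuagcugguugu
miR-34b-5p: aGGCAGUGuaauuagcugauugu
miR-449a: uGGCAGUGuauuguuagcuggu
miR-449c: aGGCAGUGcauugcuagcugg
miR-34b-3p: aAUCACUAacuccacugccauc
miR-34c*: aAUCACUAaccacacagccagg
Of the 1679 mature mouse miRNAs in the RefSeq table, which do not include miR-34c, 4 carried the seed GGCAGUG, and these were miR-34a, miR-34b-5p, miR-449a and miR-449c. The products of the other arm, miR-34b-3p and miR-34c*, carried a different seed, AUCACUA, which they shared with each other. Counted from the 5′ end, the other-arm products matched at 17 of 22 positions and differed at U11C, C12A, U16A, U21G and C22G. miR-34a and miR-449a matched at 15 of 22 positions, and miR-34a and miR-34b-5p at 11 of 22, with 8 of these in a run from base 2.

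The members come from 4 hairpins on 3 chromosomes (mm9). miR-34a lies at chr4:149442582-149442603 on the plus strand, in a hairpin outside annotated genes and 11478 bp from the nearest one, Gm13067. miR-34b-5p (chr9:50911715-50911737) and miR-34b-3p (chr9:50911679-50911700) lie on the minus strand, 451 bp from the hairpin that holds miR-34c (chr9:50911181-50911203) and miR-34c* (chr9:50911149-50911170). No annotated gene overlaps either of these hairpins. miR-449a lies at chr13:113827757-113827778 on the plus strand, in an intron of Cdc20b, a gene expressed with multiciliated cell programmes. Reads were assigned to loci by the authors, and how reads of similar members were split between them could not be checked here.

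The most abundant member was miR-34c, with a mean of 1038 RPM over the 7 libraries, which ranked 66 among the 756 sequences. miR-34a followed with 436.2 RPM (rank 100) and miR-34b-5p with 275.9 RPM (rank 129). The other-arm products were read far less, miR-34b-3p at 15.95 RPM (rank 303) and miR-34c* at 14.05 RPM (rank 314), and miR-449a was the least abundant at 7.39 RPM (rank 359). These are shares of reads, which also depend on how well each sequence is ligated. miR-34c had more reads than miR-34a in 7 of 7 libraries, by 1.01 to 4.71 times, and counting intervals of the ratio lay clear of 1 in 6 libraries. miR-34a was above miR-34b-5p in 5 of 7 libraries, and below it in libraries 3 and 6, where the difference in library 6 (2813 against 2858 reads) was within counting error. miR-34b-3p and miR-34c* were separated by more than counting error in only 2 of 7 libraries. Over the libraries the family did not vary as one. The SD of the log2 level was 0.72 for miR-34b-5p, 0.65 for miR-34c, 0.58 for miR-34b-3p and 0.45 for miR-34c*, against a median of 0.22 over the 476 miRNAs that averaged 10 or more reads. For miR-34a it was 0.37 and for miR-449a 0.18.

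**Figure D1:**
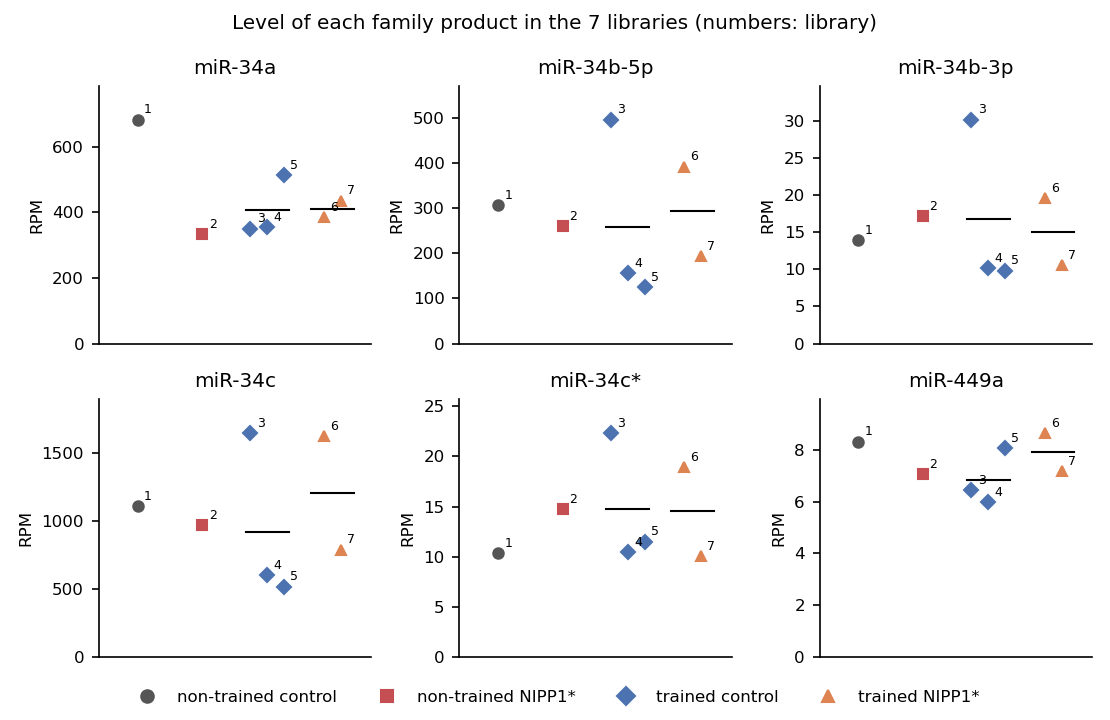
Level (RPM) of each of the 6 products in each library, 1 point per library with its number, grouped as labelled; horizontal lines are means of groups with more than 1 library. miR-34a is highest in library 1 at 682.5 RPM and lowest in library 2 at 333.1 RPM, while the 4 products of Mir34b and Mir34c are highest in library 3.

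miR-34a, the member with its own gene, was lower in the non-trained NIPP1* library than in the non-trained control. Its level was 682.5 RPM (6068 reads) in the non-trained control and 333.1 RPM (2689 reads) in the non-trained NIPP1* library, 48.8% of the former. The log2 ratio was -1.03, with an exact binomial interval (95%) of -1.101 to -0.97 that covers only the error of counting, as reads copied by PCR are not separate molecules. It was the lowest ratio among the 322 miRNAs that averaged 100 or more reads over the 2 non-trained libraries. It was also the only one of at most -1 (0.311% of these miRNAs), while 0.932% were past 1 in size in either direction. Their median log2 ratio was 0.019. Each non-trained group is 1 library, so the difference has no replicate check and no test was made.

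After training, miR-34a was at 350.0, 354.3 and 512.4 RPM in the trained control libraries and at 386.1 and 435.3 RPM in the trained NIPP1* libraries. All 5 trained libraries thus lay between the 2 non-trained ones, below the control and above NIPP1*, whichever way the trained libraries are assigned to genotypes. This order was found for 5 of the 476 miRNAs tested (1.05%), namely let-7g, miR-130b, miR-3072, miR-34a and miR-499, of which all but miR-34a are named because they share it. Either order of the non-trained libraries around the trained ones was found for 2.52% of the miRNAs, and the non-trained control was the highest of all libraries for 19.5%. Both non-trained libraries lay on one side of the trained ones for 11.6% of the miRNAs and for no member. The trained groups overlapped, with means of 406 ± 92.5 RPM (SD, n = 3) in controls and 411 ± 34.8 RPM (SD, n = 2) in NIPP1* mice.

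Whether training altered the family was tested by fitting limma to log2(RPM + 0.5) of the 7 libraries together, for 476 miRNAs, with Benjamini-Hochberg adjustment. The non-trained groups have no replicates, and the fit gives them the spread of the trained groups. In controls, miR-34a had a log2 difference of -0.77 upon training (SE 0.25, 95% confidence interval -1.37 to -0.18), with an unadjusted p of 0.0183 and an adjusted p of 0.666 in limma. It was lower than the non-trained control in 3 of 3 libraries, yet the difference did not pass the threshold. In NIPP1* mice the log2 difference was 0.30 (SE 0.27, interval -0.33 to 0.93), with an adjusted p of 0.973 in limma, and 2 of 2 libraries were higher than their non-trained library. The training effects of the genotypes differed by 1.07 on the log2 scale (SE 0.37, interval 0.20 to 1.94), with an unadjusted p of 0.0226 and an adjusted p of 0.577 in limma. Oligodendrocyte marker miRNAs (miR-219-5p and miR-338-3p) had differences of the same sign as miR-34a in the same fits, with a median log2 difference of -0.82 for training in controls, 0.58 for training in NIPP1* mice and 1.41 for the difference of the training effects. Both markers had an unadjusted p under 0.05 in limma for the first and the last of these, and neither was called (lowest adjusted p 0.288). Red blood cell marker miRNAs (miR-144*, miR-451 and miR-486*) had medians of -0.55 (range -0.71 to 0.32), 1.02 (0.086 to 1.61) and 1.58 (-0.24 to 2.32) in these comparisons. The list thus held both signs for training in controls and for the difference of the training effects. Of the 3 markers, 0, 1 and 1 had an unadjusted p under 0.05 in limma, and none was called. Their median log2 ratio between the non-trained libraries was -0.39 (range -1.06 to 0.037). The part of either cell type in the differences of miR-34a was not tested. All 3 values of miR-34a compare with non-trained libraries that stand at the ends of the range and were measured once.

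No miRNA was called in any of these comparisons by limma at an adjusted p under 0.05 (0% of 476). At an unadjusted p under 0.05, limma gave 28 miRNAs (5.88%) for training in controls, 21 (4.41%) for training in NIPP1* mice and 37 (7.77%) for the difference of the training effects. miR-34a had the ninth lowest p for training in controls and was the only member among those 28. It was also the only member among the 37. The quasi-likelihood test of edgeR on the recovered reads made 0 calls in each, where 26, 22 and 35 miRNAs had an unadjusted p under 0.05, and the Wald test of DESeq2 called 1, 2 and 2, none of them a member. With all 5 trained libraries set against both non-trained ones, miR-34a had a log2 difference of -0.24 (SE 0.26) and an adjusted p of 0.892 in limma. Without library 1 this value was 0.28. limma made 0 calls in that contrast, and 26 miRNAs (5.46%), none of them a member, had an unadjusted p under 0.05.

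Mir34b and Mir34c, which lie next to each other, gave products that had similar but not identical orders across the libraries. miR-34c was at 1111 RPM in the non-trained control and 969.3 RPM in the non-trained NIPP1* library. In the trained control libraries it was at 1648, 602.9 and 517.6 RPM, and in the trained NIPP1* libraries at 1628 and 790.5 RPM. The highest level was thus in a trained control library and so was the lowest, and each trained group spanned both non-trained values.

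miR-34b-5p followed the same order, with 306.2 RPM for the non-trained control, 260.8 RPM for non-trained NIPP1*, 496.8, 155.8 and 124.7 RPM in the trained control libraries, and 392.3 and 194.6 RPM in the trained NIPP1* libraries. The trained controls differed among themselves by 3.98 times for miR-34b-5p and by 3.18 times for miR-34c, whereas counting error was at most 3.20% of a level. Reads of miR-34c per read of miR-34b-5p stayed between 3.32 and 4.15 in the 7 libraries. Pearson's r of their log2 levels was 0.99 and Spearman's rho 1 over these 7 libraries, as a description of points that share library and depth. Against miR-34a, r was -0.18 for both. miR-34b-3p had an r of 0.93 with miR-34b-5p and 0.90 with miR-34c (rho 0.96 for both), whereas miR-34c* had an r of 0.78 and 0.79 with them and a rho of 0.57.

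The other-arm products, usually the less retained strand of the hairpin duplex, were highest in the same libraries, with fewer reads. miR-34b-3p was at 13.95 RPM (library 1) and 17.22 RPM (library 2) without training, at 30.24, 10.18 and 9.85 RPM in the trained controls and 19.63 and 10.58 RPM in the trained NIPP1* libraries. miR-34c* was at 10.35 RPM (library 1) and 14.74 RPM (library 2) without training, at 22.32, 10.42 and 11.51 RPM in the trained controls and 18.94 and 10.08 RPM in the trained NIPP1* libraries. Library 3 was highest for both, and library 6 was next. The other arm made up 4.36% to 7.32% of the reads of Mir34b and 0.923% to 2.18% of those of Mir34c. For Mir34c, reads of the 5′ arm per read of the other arm ranged from 45.0 in library 5 (exact interval 36.5 to 56.1) to 107 in library 1 (87.5 to 133). These intervals do not overlap and cover counting error only.

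Between the non-trained libraries, miR-34b-5p had a log2 ratio, NIPP1* over control, of -0.23 (interval -0.31 to -0.15) and miR-34c of -0.20 (-0.24 to -0.15). For the other arms the ratios were 0.30 (-0.06 to 0.67) for miR-34b-3p and 0.51 (0.11 to 0.92) for miR-34c*. The pairs of arms thus had ratios of opposite sign, without replicates, and the interval of miR-34b-3p includes 0.

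Upon training in controls, limma gave a log2 difference of -0.47 for miR-34c (SE 0.67, adjusted p 0.799) and -0.52 for miR-34b-5p (SE 0.75, adjusted p 0.806). The interval for miR-34c, -2.05 to 1.11, allows a change of over 1 in either direction, so this comparison could not show moderate changes. The trained control libraries moved these values both ways. Without library 3 they were -0.99 (SE 0.40, adjusted p 0.220) and -1.13 (SE 0.41, adjusted p 0.177) in limma, without library 4 they were -0.27 and -0.30, and without library 5 -0.16 and -0.14. Over all alternatives run, the adjusted p lay between 0.220 and 0.994 for miR-34c and between 0.177 and 0.994 for miR-34b-5p. In NIPP1* mice the training difference was 0.23 for miR-34c (SE 0.71, adjusted p 0.999) and 0.08 for miR-34b-5p (SE 0.80, adjusted p 0.999) in limma. For the other arms, training in controls gave 0.057 for miR-34b-3p and 0.41 for miR-34c*, and training in NIPP1* mice gave -0.25 and -0.088. Their standard errors were 0.50 to 0.69, and each value was opposite in sign to that of the 5′ arm of its hairpin. For the 4 products of the cluster, the difference of the training effects lay between -0.50 and 0.70 with standard errors of 0.72 to 1.096. With 1 library left out it ranged from 0.18 to 1.22 for miR-34c, from 0.10 to 1.22 for miR-34b-5p and from -0.94 to -0.06 for miR-34c*.

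The trained genotypes were also compared with each other. The log2 difference, NIPP1* minus control, was 0.50 for miR-34c (SE 0.53, adjusted p 0.783 in limma), 0.37 for miR-34b-5p (SE 0.59, adjusted p 0.875), 0.04 for miR-34a (SE 0.20, adjusted p 0.973) and 0.20 for miR-449a (SE 0.21, adjusted p 0.783). For miR-34b-3p and miR-34c* it was -0.0096 and -0.0070. The interval for miR-34a was -0.43 to 0.51, and its sign turned with other scalings of the libraries. In the same comparison, oligodendrocyte markers had a median of 0.82 (range 0.50 to 1.13) and red blood cell markers of 1.19 (range -0.20 to 1.33). Of these markers, 2 of 2 and 2 of 3 had an unadjusted p under 0.05 in limma, and none was called. Their part in the values of the family was not tested. limma made 0 calls among 476 miRNAs (0%), and 34 (7.14%) had an unadjusted p under 0.05. By the same counts, edgeR called 0 with 34 and DESeq2 called 1 with 30, and no member was among the calls or among limma's 34.

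**Figure D2:**
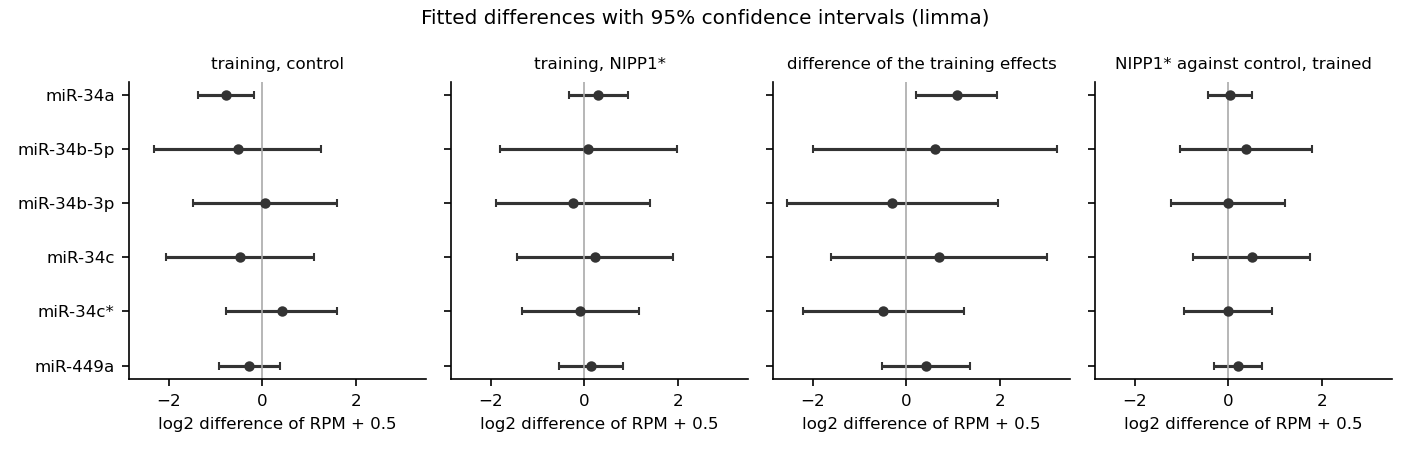
Fitted log2 differences (horizontal axis, log2 of RPM + 0.5) of the 6 products in 4 comparisons, with 95% confidence intervals from limma. Intervals of miR-34a lie clear of 0 for training in controls and for the difference of the training effects (1.07, adjusted p 0.577), and the intervals of Mir34b and Mir34c products are the widest.

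Across the 7 libraries, a list of marker miRNAs drawn up for the choroid plexus and ciliated ependyma followed the products of Mir34b and Mir34c. The list holds no separate markers of the ependyma, so it cannot tell ependymal RNA from choroid plexus RNA. Whether the listed miRNAs vary independently of each other was not tested. Of 8 marker miRNAs listed, 7 were found, and miR-764-5p was not. Their summed level was 1356 RPM for the non-trained control, 1666 RPM for non-trained NIPP1*, 2720, 881 and 558 RPM in the trained controls, and 1989 and 756 RPM in the trained NIPP1* libraries. The sum was carried by miR-204 (400.1 to 1154 RPM), miR-1298 (135.7 to 1348 RPM) and miR-448-3p (17.52 to 191.6 RPM), and miR-211 and miR-764-3p were at 0 in 1 library each. Libraries 3 and 6 held the highest sums, as they held the highest levels of miR-34b-5p and miR-34c, and library 5 held the lowest of each.

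Over the 7 libraries, Pearson's r with the log2 of this sum was 0.96 for miR-34b-5p (Spearman's rho 0.93), 0.96 for miR-34b-3p (rho 0.96), 0.93 for miR-34c (rho 0.93) and 0.84 for miR-34c* (rho 0.75). Without libraries 3 and 5, the farthest from the median sum, r over 5 libraries was 0.88, 0.98, 0.85 and 0.86. Of 471 miRNAs outside the list, 4 (0.849%) had an r of at least 0.9, and these were miR-34b-5p, miR-34b-3p, miR-34c and miR-1298*, the other arm of a listed marker. For miR-34a r was -0.37 (rho -0.57) and for miR-449a -0.04 (rho -0.04). Reads of miR-34c per read of the summed markers varied by 1.80 times between libraries, while the markers varied by 4.88 times. The signs matched in some comparisons and not in others. For training in controls, the 5 markers tested had a median log2 difference of -0.71 (range -0.91 to 0.046). It was -0.47 for miR-34c and -0.52 for miR-34b-5p, but 0.057 for miR-34b-3p and 0.41 for miR-34c*. Between trained genotypes the markers had a median of 0.37 (range 0.084 to 0.51). There miR-34c was at 0.50 and miR-34b-5p at 0.37, and miR-34b-3p and miR-34c* were at -0.0096 and -0.0070. Between the non-trained libraries, the same markers had a median log2 ratio of 0.19 (range 0.16 to 0.43), NIPP1* over control. There miR-34b-5p and miR-34c were at -0.23 and -0.20, whereas miR-34b-3p and miR-34c* were at 0.30 and 0.51. For training in NIPP1* mice the markers had a median log2 difference of -0.54 (range -0.66 to -0.30). There miR-34c and miR-34b-5p were at 0.23 and 0.083, whereas miR-34b-3p and miR-34c* were at -0.25 and -0.088. In bulk tissue, a different number of cells of a type and a different amount of RNA per cell cannot be told apart, and the part of choroid plexus or ependymal RNA in the differences of miR-34b and miR-34c was not tested.

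**Figure D3:**
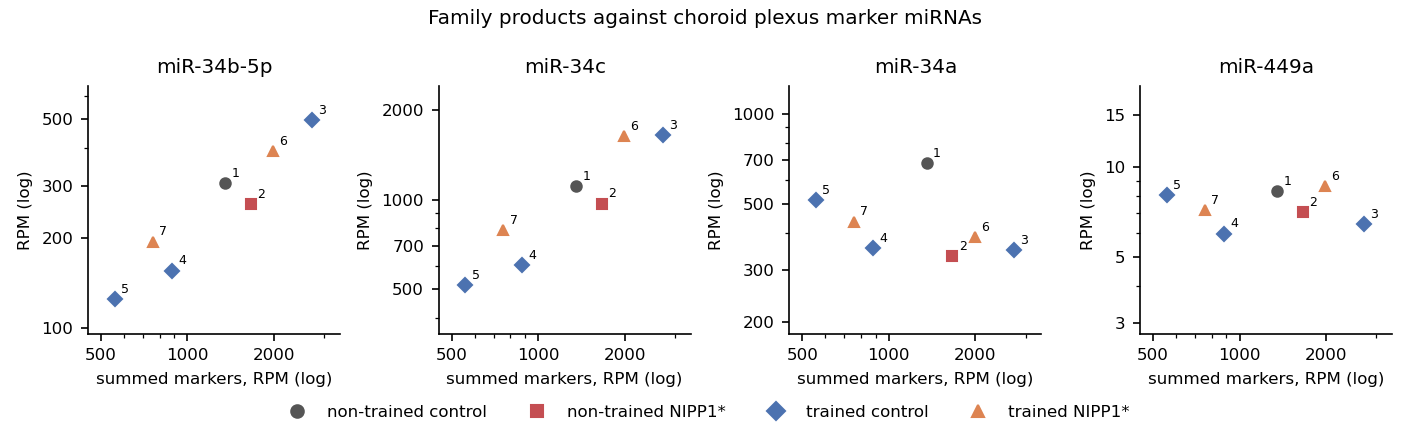
Level of miR-34b-5p, miR-34c, miR-34a and miR-449a (vertical, RPM, log axis) against the summed level of the 7 choroid plexus marker miRNAs found from the list (horizontal, RPM, log axis), 1 point per library with its number. miR-34b-5p and miR-34c rise along the markers from library 5 to libraries 3 and 6, with r of 0.96 and 0.93, whereas miR-34a and miR-449a do not (r of -0.37 and -0.04).

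Over all 7 libraries, r with miR-34c was 0.56 or lower for each of the other cell type lists. Neuronal markers (6 of 6 found, miR-132 by its more abundant product miR-132*) were present in every library, with sums of 84721 to 94518.5 RPM. The r of this sum with miR-34c was -0.45. The sum was carried mostly by miR-128, which was highest in library 5 (71940 RPM), where miR-34c was lowest. In contrast, miR-124, miR-137, miR-138 and miR-218 were lowest in library 5, as miR-34c was, and miR-132* was lowest in library 6. The miR-200 family of epithelia (5 of 5) summed to 112 RPM in library 3 and 356 RPM in library 6, which were the lowest and the highest sums although both libraries were high in miR-34c. Oligodendrocyte markers (2 of 2) were highest in library 1 (4808 RPM) and lower in library 2 (3845 RPM), the libraries that were highest and lowest in miR-34a. Their median log2 ratio between these libraries was -0.61 (range -0.89 to -0.32), with miR-219-5p at 19.96 and 10.78 RPM. Their r was 0.42 with miR-34a and 0.65 with miR-449a, and 0.78 and 0.90 over 5 libraries, without libraries 4 and 5. Red blood cell markers (3 of 3) ranged from 68.5 RPM in library 4 to 256 RPM in library 7. Their r was 0.42 with miR-34b-5p and 0.46 with miR-34c, and 0.95 and 0.96 over 5 libraries, without libraries 4 and 7, so these values rest on which libraries are kept. No marker in the neuronal, miR-200, oligodendrocyte or red blood cell list was at 0 in a library. The part of these cells in the differences of the family was not tested.

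miR-449a, which is processed from an intron of Cdc20b, was present at a low and even level. It was at 8.32 RPM (74 reads) in the non-trained control and 7.06 RPM (57 reads) in the non-trained NIPP1* library. In trained controls it was at 6.46, 5.99 and 8.06 RPM, and in trained NIPP1* mice at 8.65 and 7.19 RPM. The trained groups overlapped, and the highest level was 1.44 times the lowest. Its log2 ratio between the non-trained libraries was -0.24 with a counting interval of -0.76 to 0.28. Training gave a log2 difference of -0.28 in controls (SE 0.27, adjusted p 0.735 in limma) and 0.15 in NIPP1* mice (SE 0.29, adjusted p 0.999). At 50 to 74 reads a library, counting error alone reached 14.1% of the level. Its relative miR-449c, with the same seed, was listed at 0 to 0.37 RPM, and miR-34a*, the other arm of Mir34a, at 0 to 0.45 RPM, too few reads to compare.

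The 5′ arm products of the family were summed to show how much of their reads each gene supplied. The sum was 2108 RPM for the non-trained control, 1570 RPM for non-trained NIPP1*, 2501, 1119 and 1163 RPM in the trained controls and 2415 and 1428 RPM in the trained NIPP1* libraries. miR-34c made up 44.5% to 67.4% of it, miR-34a 13.99% to 44.1%, miR-34b-5p 10.7% to 19.9% and miR-449a at most 0.693%. In library 5, miR-34a (44.1%) and miR-34c (44.5%) contributed alike, whereas in library 3 miR-34a gave 13.99% and miR-34c 65.9%. The trained controls therefore ranged from the highest to the lowest sum of the 7 libraries.

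**Figure D4:**
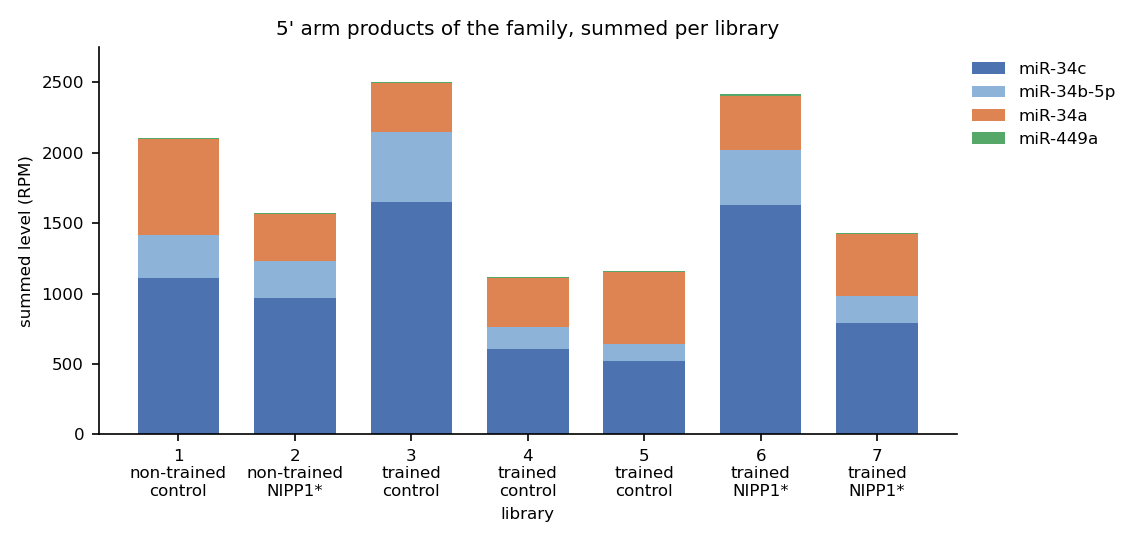
Summed level (RPM, bars from 0) of miR-34c, miR-34b-5p, miR-34a and miR-449a in each library, with the library's number and group. The sum runs from 1119 RPM in library 4 to 2501 RPM in library 3, and most of the difference lies in the miR-34c and miR-34b-5p segments.

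A list of other miRNAs linked to p53, whose transcription or processing it is known to raise, was set beside the family. Of its 9 members, 8 passed the minimum of 10 reads, and miR-215, at 0.26 to 1.1 RPM, did not. limma called 0 of the 8 in either direction in each of the 5 tested comparisons. The median log2 difference of the list was -0.17 for training in controls, against -0.09 over all 476 miRNAs, and 0.09 for training in NIPP1* mice, against -0.03. Between the non-trained libraries the list had a median log2 ratio of -0.04 (range -0.18 to 0.17), whereas miR-34a was at -1.03. Over the 7 libraries, r with the summed list was 0.10 for miR-34a, -0.81 for miR-34b-5p and -0.78 for miR-34c, and without libraries 4 and 5 it was 0.013, -0.44 and -0.35. The sum was carried mostly by miR-143. p53 itself was not measured, and its part in the levels of the family was not tested.

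The miRNAs most like each member in pattern were taken from 314 candidates with a mean of at least 100 reads, by Pearson's r over the 7 libraries. For miR-34a these were miR-490-3p (r 0.78), miR-135b (0.77) and miR-181d (0.74), of which miR-135b ranged from 145.5 to 419.2 RPM. For miR-34b-5p they were miR-448-3p (0.96), miR-1298 (0.94) and miR-126-3p (0.94), and for miR-34c miR-30b (0.94), miR-448-3p (0.93) and miR-1298* (0.92). For miR-34b-3p they were miR-204 (0.98), miR-382* (0.95) and miR-1298 (0.91), and for miR-34c* miR-204 (0.91), miR-382* (0.87) and miR-195 (0.80). The likest miRNAs of the 4 cluster products thus held listed choroid plexus markers or their other arm in each case, and those of miR-34a held none. miR-449a, with under 100 reads, was not ranked.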

How the data were processed

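Small RNA libraries (TruSeq Small RNA, HiSeq 2000) were trimmed by the authors, inserts of 19 to 26 nt were kept, mapped to mm9 with Bowtie in ncPRO-seq, and deposited as the percent of miRNA reads at each of 806 mature loci. The submitters' processing notes name CASAVA 1.7.0, Bowtie and bedtools. Percent values were multiplied to RPM, joined by sequence, and converted to whole reads: 100% of low values came out whole, within 0.1 read and print rounding. The tables of group comparisons deposited by the authors hold normalised signal as group means, which served to name loci and to check groups. Their fold changes and p-values were not used, nor were 2 columns of values per library.

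Differences were tested two-sided with limma 3.58.1 (trend) on log2(RPM + 0.5), mean of at least 10 reads, threshold 0.05, in place of the Wilcoxon test of the study, which cannot reach that threshold with 1, 1, 3 and 2 libraries. Alternatives were TMM and DESeq2 size factors, pseudocounts of 0.1 and 1, other read minimums, edgeR 4.0.16, DESeq2 1.42.0, pairs of groups alone, exchanged trained groups, and leaving out each trained library in turn (each of the 7 where all trained libraries were set against the non-trained). Scripts were tested on simulated data. The members, lists and tests were chosen with earlier results of these data known. Named beside the members were products with the same seed, products of the same hairpins, and the 3 miRNAs outside the family with the highest r for each member with a mean of at least 100 reads. R 4.3.3, Python 3.11.15, numpy 2.4.6, scipy 1.17.1, pandas 2.3.3 and matplotlib 3.10.9 were used.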

Additional observations from a re-analysis of the deposited data

Results flagged for a closer look

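The training differences of miR-34a had opposite signs in the 2 genotypes, neither of them past the threshold: each of 3 trained control libraries was below the non-trained control and each of 2 trained NIPP1* libraries was above the non-trained NIPP1* library. The difference of the training effects was 1.07 on the log2 scale, with an adjusted p of 0.577 in limma, so the test did not pass the threshold. This value is the sum of the log2 difference between trained genotypes, 0.04, and the size of the ratio between the non-trained libraries, -1.03, which was measured once. miR-449a showed the same opposite order, with a difference of 0.426 and an adjusted p of 0.890 in limma. It had only 50 to 74 reads a library, and counting error reached 14.1% of its level. The share of all tested miRNAs with this opposite order was not counted, so how unusual it is remains unknown. With the trained groups exchanged, miR-34a kept the opposite order (0.99) and miR-449a lost it (0.019). Each rests on 1 library per non-trained group.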

How the results depend on the processing

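No member was called in any tested comparison under any alternative run. Of 457 member values under alternatives, 408 kept their direction and 49 changed sign, all of them uncalled, and the lowest adjusted p among all was 0.153. The count of miRNAs called rose from 0 with DESeq2's Wald test to 1 for training in controls, 2 for training in NIPP1* mice, 1 between trained genotypes, 2 for the difference of the training effects and 1 for all trained against non-trained. For miR-34a the training difference in controls stayed between -0.95 and -0.65 (adjusted p 0.175 to 0.994) and the difference of the training effects between 0.98 and 1.25 (adjusted p 0.192 to 0.997). Between the non-trained libraries, miRNAs past a log2 ratio of 1 numbered 3, and 14 with a minimum mean of 10 reads over these libraries.

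With the trained groups exchanged, training in controls gave 0.030 for miR-34c, and training in NIPP1* mice gave -0.29 for miR-34b-5p, -0.27 for miR-34c and -0.053 for miR-449a. The difference of the training effects then became -0.14 for miR-34b-5p and -0.30 for miR-34c, while that of miR-34a was 0.99 and that of miR-449a 0.019, with training differences of miR-449a then below 0 in both genotypes (-0.072 in controls). Between trained genotypes the exchange turns every sign by construction, to -0.039 for miR-34a, -0.37 for miR-34b-5p, 0.0096 for miR-34b-3p, -0.50 for miR-34c, 0.0070 for miR-34c* and -0.20 for miR-449a. For miR-34a between trained genotypes, TMM gave -0.037, DESeq2 size factors -0.014, edgeR -0.061 and DESeq2's Wald test -0.041. The Wald test gave 0.014 for miR-34c* upon training in NIPP1* mice. For all trained against non-trained, edgeR and the Wald test gave 0.0028 and 0.0089 for miR-34b-5p, 0.11 and 0.11 for miR-34b-3p, and 0.052 and 0.060 for miR-34c. The cause of these sign changes was not tested, apart from the exchange itself.

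Leaving out 1 library at a time turned the sign of these values. Upon training in controls the range was -0.46 to 0.33 for miR-34b-3p. Upon training in NIPP1* mice it was -0.42 to 0.59 for miR-34b-5p, -0.68 to 0.18 for miR-34b-3p, -0.29 to 0.75 for miR-34c and -0.53 to 0.35 for miR-34c*. Between trained genotypes it was -0.056 to 0.22 for miR-34a, -0.13 to 0.98 for miR-34b-5p, -0.44 to 0.51 for miR-34b-3p, -0.019 to 1.02 for miR-34c and -0.45 to 0.43 for miR-34c*. The difference of the training effects ranged from -0.73 to 0.21 for miR-34b-3p. For all trained against non-trained it was -0.76 to 0.28 for miR-34a, -0.35 to 0.053 for miR-34b-3p, -0.38 to 0.035 for miR-34c, -0.083 to 0.41 for miR-34c* and -0.19 to 0.028 for miR-449a. A lone library left in a group was taken to vary like the rest. No paired analysis was possible because the labels carry no replicate numbers; those used here only name the libraries in order of deposition.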
